A study of Mus musculus with 6 samples.

Results

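The H3K4me3 peaks described here were called in wt+TNFα colonic organoids at places where no H3K4me3 peak was called in wt organoids. A peak was taken when it lay on an autosome and shared 0 bp with every peak of the wt list. Of 11565 autosomal H3K4me3 peaks in wt+TNFα organoids, 761 (6.58%) met this rule, and the other 10804 overlapped a wt peak. In the opposite direction 366 of 11233 autosomal wt peaks had no counterpart in wt+TNFα organoids. The 761 peaks were chosen on the presence of a called H3K4me3 peak in one list and its absence in the other, so their H3K4me3 enrichment and width are given as a description.

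Both cultures were mouse colonic epithelial organoids, which are cells grown in gel as closed epithelial structures, of the C57BL/6 genotype. The wt culture received no TNFα, and the wt+TNFα culture received the cytokine at 40 ng/ml for 3 weeks. According to the methods, wt organoid medium held L-WRN conditioned medium, serum, gastrin, N-acetyl cysteine and the inhibitors Y-27632, A83-01, SB203580 and CHIR9902, so Wnt activation and inhibition of the TGFβ receptor and of p38 were part of the background of both groups. Each condition had 1 H3K4me3, 1 H3K27me3 and 1 input library. Without replicates the differences have no error from repeated cultures, and p-values are not given. The H3K4me3 lists named peaks on chromosome Y in wt (3) and none in wt+TNFα (0), and the length of chromosome X under H3K27me3 was 0.597 Mb in the former and 74.7 Mb in the latter. An effect of TNFα and a difference between the cultures cannot be told apart. Of 14 epithelial marker genes, 14 had a promoter H3K4me3 peak in wt and 13 in wt+TNFα, where Krt20 had none. Of 20 markers of immune, endothelial, mesenchymal and neural cells, 0 had one in either condition.

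Trimethylation of histone H3 at lysine 4 (H3K4me3) marks the starts of genes that are transcribed or ready for transcription, and at strong CpG-rich promoters it spreads over the first nucleosomes. Trimethylation at lysine 27 (H3K27me3) is laid down by Polycomb repressive complex 2 over silent developmental genes, often as broad domains over CpG islands. In bulk chromatin a promoter under both marks may carry them on the same nucleosomes or in different cells. TNFα acts through its receptors on NF-κB and on stress kinases, and in colonic epithelium it induces chemokines, adhesion molecules and enzymes of inflammation.

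Sequences of 8 of these places are shown because they cover the kinds of promoter that the peaks lay on. For 5 of them every CpG, the dinucleotide that is rare in most of the mouse genome and dense in CpG islands, is in capitals. The promoter sequences came from RefSeq (GRCm38.p6), read 5′ to 3′ on the strand of the gene, from 250 bases before the gene's start to the start or to the first base of an annotated exon, and the sequence near Parva was read from the plus strand of GRCm38 around the peak's summit. The Parp8, Nt5c1a and Icam1 promoters, at chr13:117025538-117025781 (minus strand), chr4:123201235-123201484 and chr9:21015690-21015939, belong to members under an H3K27me3 peak in wt alone. The Isx promoter (chr8:74872924-74873172) and the intron of Parva (chr7:112499129-112499428) had no H3K27me3 peak in either condition. The printed bases held 34 CpG at Parp8, 18 at Nt5c1a, 15 at Icam1, 2 at Isx and 6 near Parva. Only 117 of the 250 printed bases lay under the peak at Icam1, whereas all of them did so at the other places.
Parp8: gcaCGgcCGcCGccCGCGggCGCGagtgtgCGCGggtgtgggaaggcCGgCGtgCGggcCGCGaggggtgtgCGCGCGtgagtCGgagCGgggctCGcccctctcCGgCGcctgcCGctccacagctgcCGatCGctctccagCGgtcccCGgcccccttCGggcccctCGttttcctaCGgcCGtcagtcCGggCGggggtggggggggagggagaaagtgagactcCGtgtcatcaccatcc
Nt5c1a: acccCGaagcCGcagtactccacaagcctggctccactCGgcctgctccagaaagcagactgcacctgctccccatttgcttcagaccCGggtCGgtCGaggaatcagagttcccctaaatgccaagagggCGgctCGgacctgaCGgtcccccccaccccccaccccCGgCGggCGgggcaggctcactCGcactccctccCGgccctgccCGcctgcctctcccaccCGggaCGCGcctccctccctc
Icam1: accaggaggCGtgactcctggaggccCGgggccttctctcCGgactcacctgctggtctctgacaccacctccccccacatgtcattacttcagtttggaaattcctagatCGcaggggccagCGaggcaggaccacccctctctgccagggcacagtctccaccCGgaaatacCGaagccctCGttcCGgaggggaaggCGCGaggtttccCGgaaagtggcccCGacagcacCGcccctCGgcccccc
Isx: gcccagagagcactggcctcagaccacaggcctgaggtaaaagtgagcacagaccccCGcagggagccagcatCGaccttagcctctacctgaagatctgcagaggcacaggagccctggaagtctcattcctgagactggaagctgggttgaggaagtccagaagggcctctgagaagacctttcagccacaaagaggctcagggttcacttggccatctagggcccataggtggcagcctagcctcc
near Parva: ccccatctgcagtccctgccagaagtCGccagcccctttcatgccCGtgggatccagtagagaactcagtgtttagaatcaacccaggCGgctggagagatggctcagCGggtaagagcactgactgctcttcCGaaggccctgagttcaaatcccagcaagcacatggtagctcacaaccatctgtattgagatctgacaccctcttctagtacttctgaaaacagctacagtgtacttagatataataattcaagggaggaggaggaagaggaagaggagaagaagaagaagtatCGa

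The other 3 sequences are promoters of NF-κB response genes that gained a peak, shown because they held a match, with the letters that match the NF-κB consensus on either strand in capitals. They lie at chr1:83116516-83116765 for Ccl20, at chr5:90903649-90903870 for Cxcl2 and at chr11:54962941-54963190 (minus strand) for Tnip1. Icam1, Ptgs2 and Tnfsf15, the other genes of this list with a member and a RefSeq promoter, had 0 matches in their window. The match began 80 bases before the start at Ccl20. Cxcl2 had 2 overlapping matches, 97 and 96 bases before it, and Tnip1 had 3, at 58, 57 and 56 bases. The printed Cxcl2 promoter lay under its peak over all 222 bases, whereas 124 of 250 bases did so at Tnip1 and 69 of 250 at Ccl20.
Ccl20: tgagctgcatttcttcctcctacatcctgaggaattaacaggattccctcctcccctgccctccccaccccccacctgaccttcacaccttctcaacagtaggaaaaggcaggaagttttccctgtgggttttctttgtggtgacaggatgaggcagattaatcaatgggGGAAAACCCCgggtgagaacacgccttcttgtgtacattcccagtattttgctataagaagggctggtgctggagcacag
Cxcl2: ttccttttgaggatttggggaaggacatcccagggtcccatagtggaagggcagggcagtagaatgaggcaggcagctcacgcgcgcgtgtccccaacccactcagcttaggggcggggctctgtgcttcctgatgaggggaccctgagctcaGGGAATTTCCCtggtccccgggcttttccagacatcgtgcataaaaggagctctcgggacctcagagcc
Tnip1: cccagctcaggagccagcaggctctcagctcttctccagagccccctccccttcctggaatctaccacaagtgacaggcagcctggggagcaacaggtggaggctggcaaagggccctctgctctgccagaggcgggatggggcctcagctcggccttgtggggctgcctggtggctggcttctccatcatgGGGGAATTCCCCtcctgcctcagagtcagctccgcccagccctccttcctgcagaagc

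Most of the peaks called with TNFα alone were narrow and weak. Their width had a median of 556 bp, with quartiles of 438 and 782 bp and a range from 342 to 5352 bp, against a median of 1571 bp for the peaks shared with wt. The fold enrichment of H3K4me3, a ratio to the local background, had a median of 6.74 with quartiles of 5.62 and 8.61, and ranged from 3.74 to 35.0. The shared peaks had a median of 28.8, and the 366 peaks called in wt alone had a median of 6.34 and a median width of 503.5 bp. Peaks called in wt alone reached a fold enrichment of 10 in 38 of 366 cases (10.4%), and the highest value of the whole wt list, 158, belonged to one of them. A fold enrichment of 10 or more was reached by 113 peaks (14.8%), and 648 (85.2%) were narrower than 1000 bp. The wt+TNFα H3K4me3 library had more total reads than the wt library in the study's reporting summary. When the wt+TNFα list was limited to its 11233 strongest peaks, as many as wt had, 541 of the 761 members remained in it, and the part of the reads themselves was not tested.

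**Figure D1:**
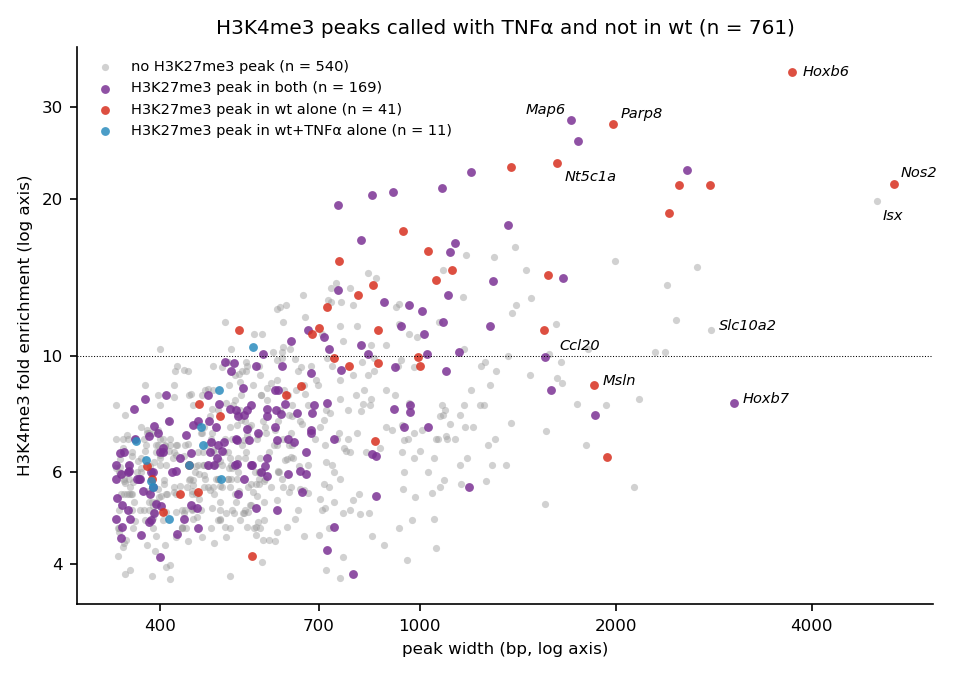
H3K4me3 fold enrichment in wt+TNFα (log axis) against peak width in bp (log axis) for each of the 761 peaks called with TNFα and not in wt, colored by the H3K27me3 peaks over the same place. Most points lie below the dotted line at a fold enrichment of 10, and the points above 20 all had an H3K27me3 peak in wt.

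The rule has a sharp edge. The member nearest to a wt peak lay 4 bp from it, in a region near Smpd3 (351 bp wide, fold enrichment 5.75), and the next were near Nedd4l (48 bp away), at the promoter of Krt8 (77 bp), near Nfia (118 bp) and near Map3k21 (127 bp). Just outside the rule, a peak near Sept9 (fold enrichment 5.24) shared 112 bp with a wt peak, and peaks near Cks2, at Vgll4, at Ankrd63 and at Nckap5l shared 153, 183, 211 and 247 bp. Krt8 encodes a keratin of simple epithelia and kept a wt peak at another of its promoters, so its member is a side peak of a gene marked in both conditions. Across all members the distance to the nearest wt peak had a median of 27502 bp, with 50 members (6.57%) within 1000 bp and 221 (29.0%) within 10 kb. Members have by their rule no overlap with a wt peak, so these distances are a description.

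A promoter, taken as 1000 bp on each side of a transcript start, was overlapped by 443 members (58.2%, 95% Wilson interval 54.7 to 61.7). The share was 93.8% for the shared peaks, 91.4% for all wt+TNFα peaks and 59.3% (54.2 to 64.2) for the peaks called in wt alone. Protein-coding promoters held 386 members (50.7%) and promoters of other genes 57 (7.49%). The rest lay away from promoters, where 40 overlapped an exon, 135 lay in an intron and 143 were intergenic (5.26%, 17.7% and 18.8% of all members). Away from promoters and at least 10 kb from the start of any protein-coding gene lay 160 members (21%), against 3.25% of the shared peaks, 18.5% (16.2 to 21) of the shared peaks with a fold enrichment below 10 and 16.1% (12.7 to 20.2) of the peaks called in wt alone. Place went with strength among the members. Of the 113 with a fold enrichment of 10 or more, 87.6% overlapped a promoter, against 53.1% of the weaker 648. The 1006 shared peaks with a fold enrichment below 10 lay between these values, at 67.0% (64.0 to 69.8).

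The members marked promoters of 510 genes, of which 391 are protein-coding. These were 0.998% of the 51121 annotated autosomal genes. At 415 of the genes no promoter had a wt H3K4me3 peak, and at the other 95 the wt list held a peak at another start of the same gene. Only 8 genes had 2 or more members, among them Gcnt2, Hoxb6, Arhgef4 and Ptges. Ptges, which encodes a prostaglandin E synthase and is named here after its values were seen, had its strongest member at a fold enrichment of 6.74.

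The strongest member lay on chromosome 11 from 96292057 to 96295785, at the start of Hoxb6, a homeobox transcription factor of the Hoxb cluster. It was 3729 bp wide with a fold enrichment of 35.0 and a −log10 q of 225. A second member at another start of Hoxb6 had a fold enrichment of 8.08, and the member at Hoxb7 was 3038 bp wide with a fold enrichment of 8.12. These 3 members lay within 15381 bp. The wt list had no H3K4me3 peak within 19267 bp of the strongest one.

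The other members at the top of the list were also at protein-coding promoters. Map6, which encodes a microtubule-stabilizing protein, had a member of 1709 bp with a fold enrichment of 28.3. Parp8, of the ADP-ribosyltransferase family, had one of 1980 bp at 27.8, and Ism1, which encodes the secreted protein isthmin, one of 1751 bp at 25.8. Nt5c1a encodes a cytosolic nucleotidase, and its member of 1623 bp had a fold enrichment of 23.5. Fgf15, the intestinal hormone that represses bile acid synthesis in the liver, followed at 22.7, Sertad4 at 22.5 and Nos2, the inducible nitric oxide synthase, at 21.4. Gcnt2, an enzyme that branches glycan chains to form the I antigen, had a member of 2505 bp at 21.3 and a second of 2413 bp at 18.8 at another of its starts. Fam20c, which encodes a kinase of secreted proteins, also stood at 21.3. None of these 9 genes had an H3K4me3 peak at any promoter in wt, and the nearest wt peak to the Parp8 member was 713780 bp away.

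Width picked out a partly different set. The widest member, 5352 bp, lay over the start of Nos2 (chromosome 11, 78920146 to 78925497), and the next, 5035 bp with a fold enrichment of 19.8, over the start of Isx, the intestine-specific homeobox gene. Hoxb6 and Hoxb7 followed. Slc10a2, the bile acid transporter of the ileal brush border, had a member of 2800 bp at a fold enrichment of 11.2. Fam20c had one of 2793 bp, Fgf15 one of 2578 bp, Gcnt2 one of 2505 bp and Gabrp, a subunit of the GABA-A receptor found in epithelia, one of 2480 bp. The remaining member of the 10 widest was not at a promoter and lay over an exon near Celsr1, 2668 bp wide. Fgf15 and Slc10a2 are genes of bile acid handling known from the ileum, and both are named here by the rule for the strongest and the widest peaks.

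Away from promoters the strongest member lay in an intron of Parva, 19892 bp from the nearest coding start, with a width of 1400 bp and a fold enrichment of 16.2. It was flanked by 2 weaker members within 7571 bp in all, and repeats made up 25% of it. The member near Celsr1 followed at 14.8. Next were an intergenic member 37317 bp from the start of Cd9 at 14.6, a member over an exon near Hepacam at 14.1 and one in an intron 1980 bp from a start of Ltbp4 at 13.8. None of these 5 overlapped an H3K27me3 peak in either condition.

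There were 10 runs of at least 3 members in which neighbouring members lay at most 50 kb apart. The run at Hoxb6 and Hoxb7 was the strongest of them. The others lay near Gna13 and Rgs9, near Hist1h2br and Zfp184, near 2010111I01Rik, beyond the end of Parp8, near H2-D1, Lst1 and Lta, at Sufu, near Hnrnpa3, in Parva and near Nanos3, and their members had fold enrichments from 4.28 to 16.2. The run near Hist1h2br and Zfp184 on chromosome 13 had a tRNA gene within 1000 bp of each of its 3 members. Transfer RNA genes lay within 1000 bp of 12 members in all (1.58%, 0.904 to 2.74), against 0.916% of the shared peaks and 1.89% (1.21 to 2.93) of those with a fold enrichment below 10. The 3 members beyond the end of Parp8 (fold enrichment 4.87 to 6.93) were intergenic, 212923 bp or more from the nearest of its annotated transcript starts, and lay under H3K27me3 in both conditions.

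H3K27me3 was measured in other libraries than those that chose the members. At least 1 bp of an H3K27me3 peak lay over 210 members in wt (27.6%, 24.5 to 30.9) and over 180 in wt+TNFα (23.7%, 20.8 to 26.8). Broken down by condition, 169 members (22.2%) had a peak in both, 41 (5.39%, 4.0 to 7.23) in wt alone and 11 (1.45%, 0.809 to 2.57) in wt+TNFα alone, and 540 (71.0%) had none. Over all autosomal wt+TNFα H3K4me3 peaks the corresponding shares were 6.51% in both, 1.65% in wt alone, 1.45% in wt+TNFα alone and 90.4% with none. The members were therefore more often under H3K27me3 than the list as a whole, in both conditions and in wt alone. Most of the H3K27me3 peaks in the lists were weak, since 87.2% in wt and 80.5% in wt+TNFα had a −log10 q below 2. The lists also ended at different values, with a lowest −log10 q of 0.302 in wt and 0.747 in wt+TNFα. The part of this difference in the states in one condition alone was not tested. With only the peaks of a −log10 q of at least 2, 35 members (4.60%) lay under H3K27me3 in wt alone and 18 (2.37%) in wt+TNFα alone. These were not all the same members, since only 23 of the 41 rested on a wt peak of at least 2. The rest of the 35 also had an H3K27me3 peak in wt+TNFα, below this limit.

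Below a fold enrichment of 10, 21.1% (18.2 to 24.5) of 648 members and 24.4% (21.8 to 27.1) of 1006 shared peaks lay under H3K27me3 in both conditions. In wt alone the shares were 2.93% (1.89 to 4.53) and 1.49% (0.906 to 2.45), and in wt+TNFα alone 1.54% (0.840 to 2.82) and 3.68% (2.68 to 5.03). Members were thus lower in the first and the last of these shares and higher in wt alone, and the intervals overlapped in each pair, in the last only between 2.68% and 2.82%. At a fold enrichment of 10 or more the intervals were separate for wt alone and for both conditions. There, 19.5% (13.2 to 27.7) of 113 members lay under H3K27me3 in wt alone, against 1.38% (1.17 to 1.63) of 9798 shared peaks, and 28.3% (20.8 to 37.2) against 3.46% (3.12 to 3.84) in both conditions. In wt+TNFα alone the intervals overlapped, at 0.885% (0.156 to 4.84) of the members against 1.22% (1.03 to 1.46) of the shared peaks. The members in this range were themselves weaker than the shared peaks, with a median −log10 q of 52.3 against 212. Of the 366 peaks called in wt alone, 28 (7.65%, 5.35 to 10.8) lay under H3K27me3 in wt+TNFα alone, 101 (27.6%, 23.3 to 32.4) in both conditions and 0 in wt alone, which allows a share of up to 1.04% by the Wilson interval. Over all autosomal wt peaks these shares were 1.69%, 6.04% and 1.35%, and no set of like strength was compared with the peaks called in wt alone. The intervals cover counting error only, and neighbouring peaks are not independent. On the autosomes, H3K27me3 was called over 101 Mb in wt against 228 Mb with TNFα, and the part of this covered length in the shares was not tested.

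**Figure D2:**
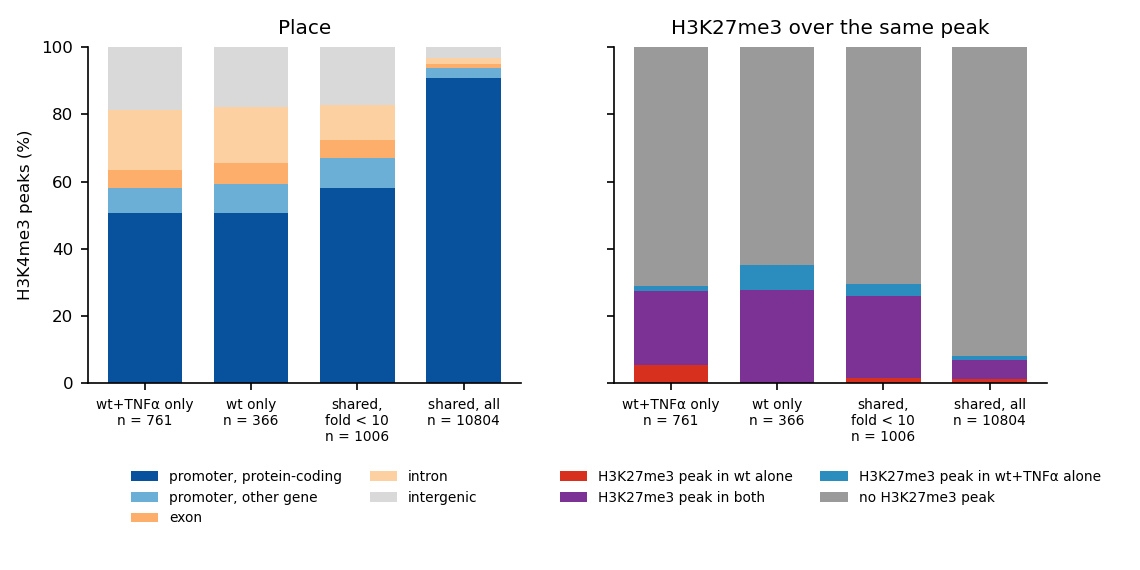
Stacked shares (%) of H3K4me3 peaks by place (left) and by H3K27me3 peaks over the same peak (right), for peaks called in wt+TNFα only, in wt only, shared with a fold enrichment below 10, and shared. H3K27me3 in wt alone takes 5.39% of the wt+TNFα-only peaks, and H3K27me3 in wt+TNFα alone takes 7.65% of the wt-only peaks.

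The strongest members were those most often under H3K27me3 in wt. Of the 113 members with a fold enrichment of 10 or more, 54 (47.8%) had an H3K27me3 peak in wt, of which 22 in wt alone. At 15 or more these numbers were 23 and 11 of 28 members, and at 20 or more 14 and 7 of 14. By contrast, 156 of the 648 weaker members (24.1%) had an H3K27me3 peak in wt, 19 of them in wt alone. The thresholds of 10, 15 and 20 were chosen after the values were seen.

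The 41 members under H3K27me3 in wt alone had a median fold enrichment of 11.2 and a median width of 854 bp. Members under H3K27me3 in both conditions had medians of 7.12 and 553 bp, those with none 6.55 and 550 bp, and those in wt+TNFα alone 6.31 and 442 bp. Of the 41, 36 were at promoters and 29 were covered by the wt H3K27me3 peak over their whole length. The wt H3K27me3 peaks had fold enrichments from 1.96 to 4.44 (median 2.52) and widths from 376 to 112833 bp (median 4510 bp). These were weak enrichments beside those of H3K4me3, and 23 of the 41 reached a −log10 q of at least 2. In wt+TNFα the nearest H3K27me3 peak lay a median of 12995 bp away. It was within 1000 bp of 6 members and within 10 kb of 18, of which 3 had H3K27me3 on both sides and 15 on one side.

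Strong members in this state lay at Hoxb6, Parp8, Nt5c1a, Nos2, Gcnt2 (2 members), Fam20c, L3mbtl4 and Gcnt1. H3K27me3 covered 100% of the member in wt at all of these but Nt5c1a (80.3%) and Nos2 (31.7%), and 0% in wt+TNFα by definition of the state. The H3K27me3 fold enrichment is that of the whole broad peak that held the member in wt, and these peaks differ in width, so it is not a level at the member itself. It was 4.01 for the peak at Parp8, 3.66 at Hoxb6, 3.31 at Fam20c, 3.05 and 2.55 at Gcnt2, 2.71 at Nt5c1a, 2.54 at Nos2 and 2.33 at Gcnt1, an enzyme that builds core 2 glycans. L3mbtl4, which encodes a protein with chromatin-binding MBT domains, had a peak of 1.97, and this wt H3K27me3 peak had a −log10 q of 0.753. Gcnt1 stood at 1.41, and the other members named here were at 2.17 or more.

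**Figure D3:**
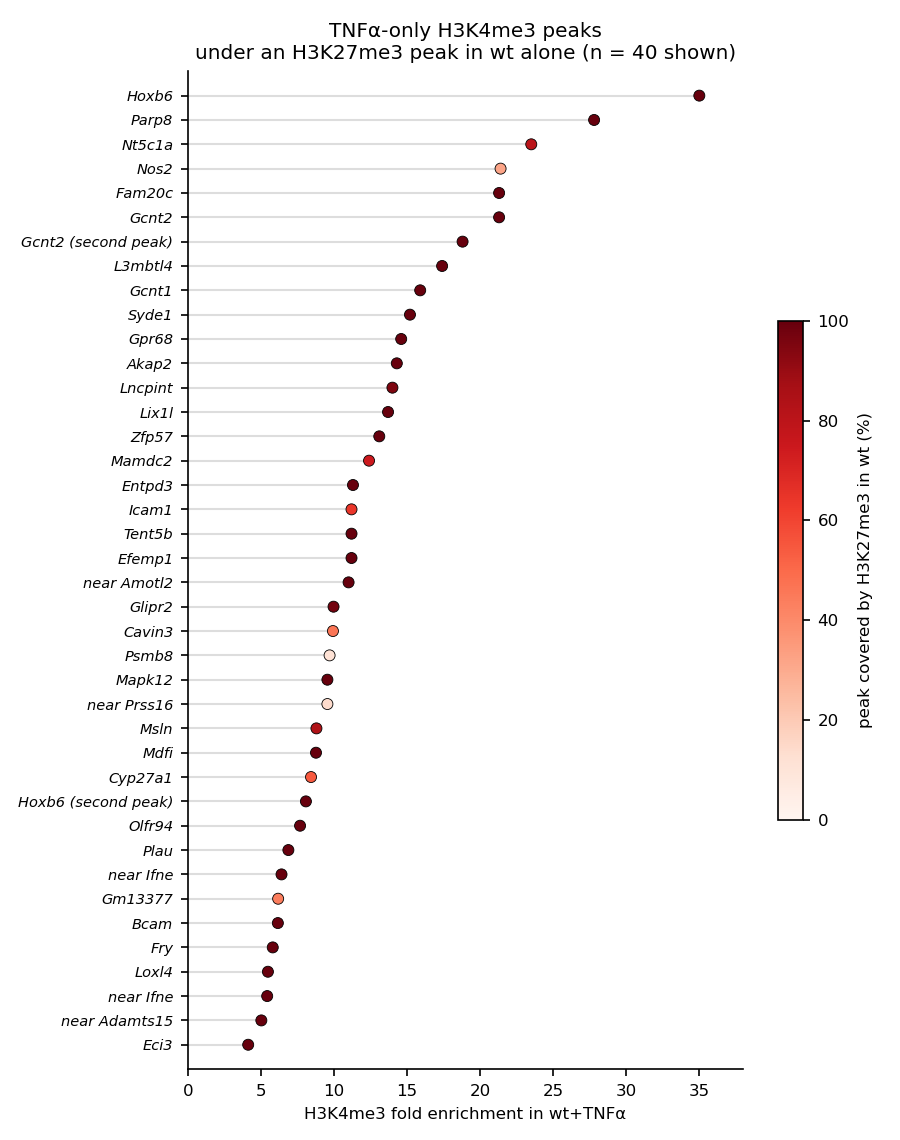
H3K4me3 fold enrichment in wt+TNFα for peaks that lay under an H3K27me3 peak in wt and under none in wt+TNFα (all but 1 of the 41), named by a promoter gene or the nearest coding gene, with color giving the percent of the peak under H3K27me3 in wt. Values run from 4.13 at Eci3 to 35.0 at Hoxb6, and 29 of the 41 peaks were covered over their whole length.

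Around the starts of Hoxb6, Parp8 and Gcnt2 the called domains can be compared directly. At Hoxb6 a wt H3K27me3 peak of 112833 bp lay over the start, and in wt+TNFα the nearest H3K27me3 peak ended 2456 bp from the strongest member. At Parp8 the wt peak was 7057 bp wide and the nearest one in wt+TNFα was 65668 bp away. At Gcnt2 the wt peak over the first member was 59544 bp wide, and that over the second was 11783 bp. In wt+TNFα the nearest H3K27me3 peaks lay 9253 and 31044 bp from these members. At Hoxb6 and Gcnt2 other H3K27me3 peaks were still called in wt+TNFα inside the span of the long wt peak, while at Parp8 none overlapped the wt peak.

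**Figure D4:**
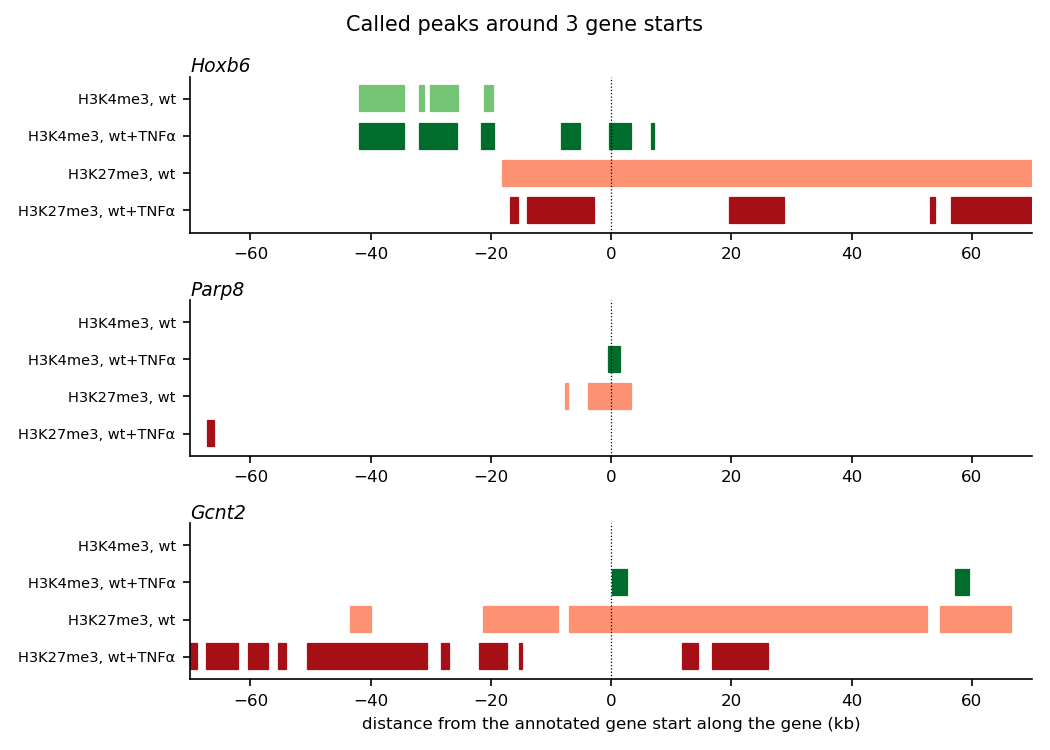
Called H3K4me3 (green) and H3K27me3 (red) peaks in wt and wt+TNFα around the annotated starts of Hoxb6, Parp8 and Gcnt2, with distance from the start along the gene in kb. In each panel the H3K4me3 peak at or next to the dotted line is present in wt+TNFα alone, and the H3K27me3 peak over it in wt alone.

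Where H3K27me3 was called in both conditions, most members stayed covered. Of 169, 154 were covered over their whole length in wt and 141 in wt+TNFα. The covered share was lower in wt+TNFα at 24, higher at 10 and equal at 135, and 137 rested on peaks with a −log10 q of at least 2 in both conditions. The 5 with the highest H3K4me3 fold enrichment were at Map6, Ism1, Fgf15, Sertad4 and Neurl1a. At Map6 the share under H3K27me3 went from 100% to 11.1%, and the H3K27me3 fold enrichment was 3.34 without and 2.25 with TNFα. At Fgf15 it went from 79.9% to 35.1%. Ism1, Sertad4 and Neurl1a, which encodes a ubiquitin ligase, were covered over 100% in both conditions. Their H3K27me3 fold enrichments were 4.22 and 2.36 at Ism1, 3.57 and 2.57 at Sertad4 and 2.87 and 2.82 at Neurl1a, each given as wt and then wt+TNFα. These last 3 promoters carried called H3K4me3 and H3K27me3 together in wt+TNFα organoids. Each H3K27me3 value given here, that of Map6 included, belongs to a whole broad peak. The peak called in wt and the one called with TNFα differed in extent at each of these genes. The pairs are therefore not a change of level at the member, and the part of unlike scales of the lists was not tested.

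The 11 members with H3K27me3 in wt+TNFα alone were narrow. The 5 strongest, all at promoters, were at Sec14l2, Gm12830, Nlrc5, Cd1d1 and Lurap1, with H3K4me3 fold enrichments of 10.4, 8.61, 7.30, 6.86 and 6.74. Nlrc5 is a transactivator of MHC class I genes, and Cd1d1 presents lipid antigens. The H3K27me3 fold enrichments over these 5 peaks in wt+TNFα were 1.97, 1.71, 2.24, 1.86 and 2.35.

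The base composition of the members differed between the H3K27me3 states, which also differed in place. In the 300 bases around the summit, the ratio of observed to expected CpG had a median of 0.505 in the members, against 0.791 in the shared peaks and 0.450 in the peaks called in wt alone. Within the members the median was 0.826 under H3K27me3 in both conditions, 0.753 in wt+TNFα alone, 0.579 in wt alone and 0.377 with none. GC content had medians of 71.0% in both, 63.7% in wt alone and 52.7% with none. Members at promoters had a median CpG ratio of 0.626 and those away from promoters 0.362. Promoters held 89.3% of the members under H3K27me3 in both conditions, 81.8% in wt+TNFα alone, 87.8% in wt alone and 45.7% with none. The part of place in the order of the states was not tested. Single genes varied widely within a state, since Parp8 had a ratio of 0.832 and Nos2 one of 0.154, both under H3K27me3 in wt alone.

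**Figure D5:**
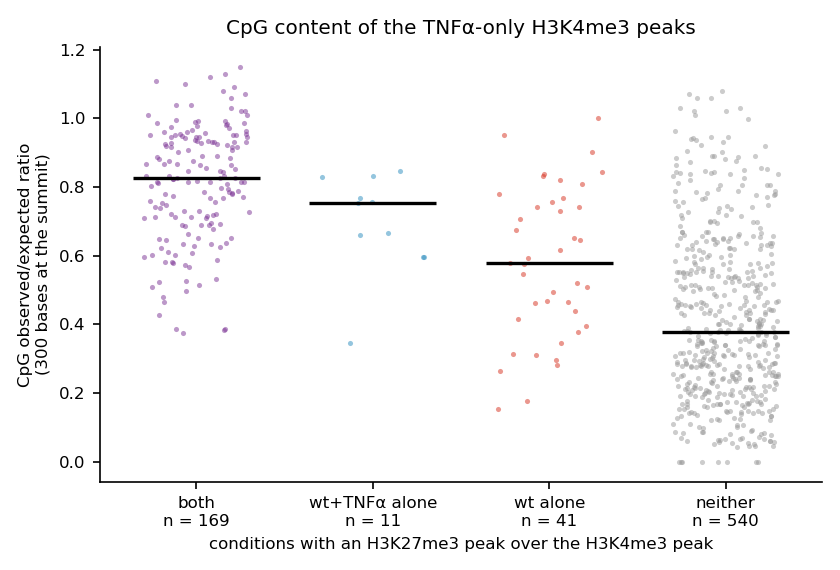
Ratio of observed to expected CpG in the 300 bases at the summit of each of the 761 peaks, by the conditions in which an H3K27me3 peak lay over it, with random sideways spread and a line at the median. The medians fall from 0.826 (both) through 0.753 (wt+TNFα alone) and 0.579 (wt alone) to 0.377 (neither).

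Letters that match transcription factor motifs were counted on both strands of the same 300 bases. The NF-κB consensus matched in 10.8% of the members (8.77 to 13.2), against 14.8% of all wt+TNFα peaks. It matched in 19.5% (14.7 to 25.4) of the members under H3K27me3 in wt and in 7.59% (5.65 to 10.1) of those with no H3K27me3 peak. The AP-1 letters TGANTCA matched in 5.65% of the members (4.22 to 7.52) and in 2.98% of all wt+TNFα peaks. The CDX letters TTTATNG, after the homeobox factors of intestinal identity, matched in 6.44% (4.90 to 8.41) and 3.18%. Members with no H3K27me3 peak gave 7.04% for AP-1 and 7.96% for CDX, against 1.90% and 2.38% of those under H3K27me3 in wt. Place differed as well, since members away from promoters gave 6.92% for AP-1 and 9.12% for CDX. Promoter members with no H3K27me3 peak gave 6.48% for each. Shared peaks with a fold enrichment below 10 gave 10.9% for NF-κB, 4.97% for AP-1 and 5.07% for CDX, each within the interval of the members. Base composition differs between these sets and was not matched, and the motifs were searched separately, so that a window could match more than 1. Among the genes with a member at a promoter, 327 of 510 had a RefSeq promoter, and 185 of these were overlapped by a member. Of the 185 promoters, 14.1% held NF-κB letters, 7.03% AP-1 letters and 8.11% CDX letters, against 8.55%, 7.84% and 10.9% of all autosomal RefSeq promoters. A match is a description of the letters and not a bound site.

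Genes of the TNF and NF-κB response had a member in 8 of 95 cases (8.42%). The genes of these lists are nearly all protein-coding, and 1.88% of the 20780 autosomal protein-coding genes had a member. Of the 95, 59 had any wt+TNFα H3K4me3 peak at a promoter and 51 a wt peak. Tnip1, which encodes a ubiquitin-binding inhibitor of NF-κB signaling, had the strongest without H3K27me3, 1995 bp wide at a fold enrichment of 15.2, and kept a wt peak at another start. Icam1, an adhesion molecule for leukocytes, had a member of 1553 bp at 11.2, and Ccl20, the chemokine of CCR6-bearing cells, one of 1579 bp at 10.1. Tnfsf15, a ligand of the TNF family, stood at 7.87, Cxcl2, a neutrophil chemokine, at 6.93, Plau, the urokinase, at 6.88 and Ptgs2, the inducible cyclooxygenase, at 6.36. Nos2 completed the list. H3K27me3 was called in wt alone at 3 of the 8, with 100% of the member covered at Plau, 64.1% at Icam1 and 31.7% at Nos2, and at the other 5 it was called in neither condition. Nod2, a sensor of bacterial cell wall fragments outside this list and named after its values were seen, had a member of 1178 bp at 15.6 with no H3K27me3 peak.

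Interferon and antigen presentation genes had a member in 6 of 64 cases (9.38%). They were Psmb8 (fold enrichment 9.70), a subunit of the immunoproteasome, H2-Eb1 (7.88), Nlrc5 (7.30), H2-M2 (6.55), Ifit2 (6.27) and Ifi27 (4.30). An H3K27me3 peak in wt alone touched 11.6% of the Psmb8 member. Senescence and growth arrest genes had 3 of 57 (5.26%), of which the study named Mapk12 from these libraries. These were Mapk12, a p38 kinase under H3K27me3 in wt alone (9.55), and Tgfb2 (5.88) and Nfatc1 (5.62), both under H3K27me3 in both conditions. Nfatc1 kept a wt peak at another start.

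Crypt stem cell genes and Wnt targets had 5 of 42 (11.9%), some of which the study named from these libraries, so the list is not independent of them. Apcdd1, an inhibitor of Wnt signaling, stood at 19.5, Lcp1 at 10.3, Arhgef4 at 7.32, Tgif2 at 6.5 and Hopx, a marker of slow-cycling crypt cells, at 5.68. All but Hopx, which kept a wt peak at another start, lay under H3K27me3 in both conditions. Of the fetal-like and regenerative genes, Msln (8.80) had a member with 83.7% under H3K27me3 in wt alone, and Anxa8 (5.81) one with none. TGFβ, BMP and activin genes had 6 of 61 (9.84%), with Bmp8b at 12.6, Nog at 7.30, and both Ltbp1 and Ltbp4 at 6.18. The others were Tgif2 and Tgfb2, whose values are given with the lists above. Hox genes had 4 of 39 (10.3%), where Hoxb7, Hoxd9 (5.40) and Hoxd11 (4.70) lay under H3K27me3 in both conditions and both members of Hoxb6 in wt alone. The study named the Hoxb cluster from these libraries, so this list too is not independent of them.

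The remaining groups are given by their counts. Among epithelial markers Krt8 alone had one (1 of 14), and among 49 genes of secretory and absorptive differentiation Car1, a carbonic anhydrase of colonocytes, had one (7.87). TNF ligands and receptors had 3 of 41, namely Tnfrsf22, Tnfsf15 and Tnfrsf11b, chemokines and their receptors 2 of 55, solute carriers 6 of 333 (1.80%) and Zfp genes 6 of 398 (1.51%). Of these, 4 solute carriers and 5 Zfp genes had no wt peak at any promoter. A single gene had a member among 41 forkhead genes (Foxj2), 54 keratin genes (Krt8), 126 ion channel genes (Cacnb2), 67 protocadherins (Pcdh9) and 29 Wnt and Frizzled genes (Wnt7b). Foxj2 and Krt8 kept a wt peak at another start. No member lay at a promoter of the 37 Polycomb and H3K4 methylation enzymes, the 42 Sox, Pax and T-box genes, the 51 genes of the Gata, Nkx, Lhx and related homeobox families, the 22 claudins or the 78 interleukins and their receptors. It was also 0 of the 19 autosomal markers of other cell types. These counts depend on how many genes of a group had a peak in wt already, which was 36 of 37 for the chromatin enzymes and 8 of 42 for the Sox, Pax and T-box genes.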

How the data were processed

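ChIP-seq of H3K4me3 and H3K27me3 was available for wt and wt+TNFα organoids, with 1 library per condition and mark. The deposited lists had been made by the authors with BWA, SAMtools (1.11) and MACS2 on GRCm38/mm10, according to the submitters' processing notes and the methods. H3K4me3 was called as narrow peaks and H3K27me3 as broad peaks, and the input libraries entered through the calling. In the deposited lists, the fold enrichment is a ratio of signal over local background. The p-value and q-value of the deposited peaks are given as −log10, and the authors' display score was not used. The MACS2 version is stated differently in different places and is not given here. All deposited lists except that of wt+TNFα H3K27me3 mention a spike-in in their names, and its use was not given in the sources used here. The lists hold no reads, so enrichment under the calling threshold was not measured.

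Overlaps of at least 1 bp were computed in Python 3.11.15 with pandas 2.3.3 and tested on simulated peaks. Transcript starts came from GENCODE M21 (141767 transcripts of 55450 genes), and sequences from GRCm38 with pysam 0.24.0. A promoter was 1000 bp on each side of a start, and H3K27me3 state was set by any overlap. Wilson intervals (95%) cover counting error only. The peaks and gene lists were chosen with earlier results of these data known, and the splits by fold enrichment were set after the values were seen. Named were the 10 strongest members at promoters, the 5 strongest elsewhere, the 10 widest, the 10, 5 and 5 strongest by H3K27me3 state, runs of at least 3 with neighbours within 50 kb, the 5 nearest to the rule's edge on each side, and listed genes with a member. Sex chromosomes were left out, and 1 gene that the rule names is not reported here.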

Additional observations from a re-analysis of the deposited data

Results flagged for a closer look

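Outside the autosomes, 25 H3K4me3 peaks on chromosome X were called in wt+TNFα and not in wt, and 11 were called in wt and not in wt+TNFα. They were set aside because they lie outside the rule that chose the 761 peaks, and because H3K27me3 on chromosome X differed between the cultures in covered length (0.597 Mb without and 74.7 Mb with TNFα).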

How the results depend on the processing

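There were 10 alternative settings, and each result was recomputed under those that apply to it. For 59 values, 40 stayed within the 95% interval of the main value, or within 1.5 times it for counts. The 2 shares in one condition alone were given these alternatives after the data were seen.

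The strictest setting, members above the median −log10 q of the whole wt+TNFα list, left 3 members at 4 genes, of which 100% were at promoters and 100% under H3K27me3 in wt. Of these 3, 33.3% were under H3K27me3 in wt+TNFα, 66.7% in wt alone and 0% in wt+TNFα alone, and the medians were 1980 bp for width and 27.8 for fold enrichment. With as many strongest wt+TNFα peaks as wt has, the promoter share was 62.8%, the share under H3K27me3 in wt 31.6%, the medians 610 bp and 7.68. With peaks covered by wt peaks over less than 50% included, the medians were 626 bp and 7.12. The promoter share was 64.9% with promoters of 2000 bp and 50.7% with protein-coding genes alone. With only H3K27me3 peaks of −log10 q of at least 2, 22.6% of the members lay under H3K27me3 in wt and 20.4% in wt+TNFα. The share in wt alone lay from 4.60% to 7.17% in the other settings, and that in wt+TNFα alone from 1.18% to 2.37%.

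No paired analysis was possible because each condition and mark has 1 library, and for the same reason no replicate was left out. The lists name called peaks alone, and signal below the calling threshold was not measured. Of the 41 members under H3K27me3 in wt alone, 23 rested on a wt peak with a −log10 q of at least 2.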
